A study of Homo sapiens with 9 samples.

Results

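The 8 protocadherin beta genes described here are PCDHB2, PCDHB3, PCDHB5, PCDHB9, PCDHB11, PCDHB12, PCDHB14 and PCDHB16. They were followed in NCCIT cells, an established embryonal carcinoma line of human origin, on 9 Affymetrix arrays with probes along whole transcripts. On these arrays 18417 genes, 12254 of them bright enough to test, had a transcript cluster (the set of probes summed for a gene) of their own. The 8 were 8 of the 18 protocadherin beta genes and pseudogenes with such a cluster. Each of the 18 had 1 cluster, so choosing the brightest cluster per gene left nothing out. The members were the protocadherin beta genes that lay above the median of all values, 7.71 on the log2 scale, on at least 1 of the 9 arrays. PCDHB14 lay just inside that threshold, with a highest value of 7.71, and PCDHB10 just outside, with 7.69. All 8 reached their highest value on an array without ethanol, and PCDHB9, PCDHB12 and PCDHB14 stayed below the threshold on every ethanol array. The genes were also proposed with their ethanol differences on these arrays known. The ethanol contrast is therefore given as a description, with no test.

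Embryoid bodies, the floating cell clumps in which such cells start to differentiate in non-adherent dishes, gave 4 arrays at day 7 and 4 at day 21. At each day there was 1 array with 50 mM ethanol, 1 with ethanol and FA, 1 with FA alone and 1 untreated. The ninth array was from undifferentiated NCCIT cells. All cultures shared the same line and serum-containing medium, which was renewed daily. The treatment text in the labels describes 7 days of culture, also for the arrays labelled as day 21. The labels do not explain the abbreviation FA or state its dose. Each condition had 1 array and no label tells if cultures were separate, so p-values reflect the spread among these 9 arrays alone, and that spread may be technical. The arrays measured bulk RNA, in which fewer cells expressing a gene and less of its RNA per cell cannot be told apart.

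Clustered protocadherins are cadherin-like adhesion proteins of the cell surface. In neurons, each cell uses a different handful of them, and the proteins bind their own kind on neighbouring cells, which lets a neuron tell its own branches from those of others. The genes stand in the alpha, beta and gamma clusters side by side on chromosome 5. Each beta gene is a single coding exon with its own promoter and makes a whole protein, whereas alpha and gamma genes splice a variable first exon to exons shared within their cluster. Promoters in these clusters are known to share an element with the core CGCT. They are bound by the DNA-binding protein CTCF and the ring complex cohesin, and their use is also limited by DNA methylation. Beta genes are neighbours with closely similar sequences, so probes for a gene can pick up RNA of another, and the values of the 8 are not fully separate measurements.

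Promoter sequences are shown first because each of these neighbouring genes is transcribed from a start of its own. The RefSeq promoter table (GRCh38.p14, 250 bases before to 50 after each gene's start) held 7 of the 8 members and 7 of the 10 other beta genes. PCDHB11, PCDHB6, PCDHB17P and PCDHB18P were not matched. The longest word shared by all 7 member promoters had 9 letters, GGTGGCGCT, and contained CGCT, so the motifs overlap. It is in capitals below, with up to 20 bases on each side and nothing beyond the gene's start. All windows are on the plus strand of chromosome 5. The members come first in chromosome order, then PCDHB10 and PCDHB15, which were too dim for the tests but also lower with ethanol. Other beta genes with the word are not shown. Their ethanol differences were -0.55 (PCDHB4), -0.32 (PCDHB13), -0.09 (PCDHB7) and 0.01 (PCDHB8).
PCDHB2, chr5:141094535-141094583: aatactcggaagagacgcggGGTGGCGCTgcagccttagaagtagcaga
PCDHB3, chr5:141100384-141100432: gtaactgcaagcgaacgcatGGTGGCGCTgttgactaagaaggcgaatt
PCDHB5, chr5:141135170-141135205: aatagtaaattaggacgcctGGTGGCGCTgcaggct
PCDHB16, chr5:141182301-141182349: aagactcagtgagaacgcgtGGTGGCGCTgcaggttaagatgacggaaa
PCDHB9, chr5:141187065-141187113: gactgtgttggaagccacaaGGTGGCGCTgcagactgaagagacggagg
PCDHB12, chr5:141208634-141208682: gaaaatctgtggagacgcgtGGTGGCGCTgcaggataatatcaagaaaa
PCDHB14, chr5:141223254-141223302: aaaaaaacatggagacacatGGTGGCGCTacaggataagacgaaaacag
PCDHB10, chr5:141192290-141192338: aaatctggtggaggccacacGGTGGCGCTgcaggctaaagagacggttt
PCDHB15, chr5:141245305-141245353: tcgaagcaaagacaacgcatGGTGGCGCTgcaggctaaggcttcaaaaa

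Searched on both strands, the 9-letter word was in 7 of 7 member promoters, in 6 of the 7 other beta promoters matched, and in 0 of 38 alpha and gamma promoters. It was in 0.501% of all 35116 promoters (27305 genes), or 176, and 13 of those 176 were beta genes. PCDHB1 was the beta promoter in the table without it. A longer form of 13 letters, GGTGGCGCTGCAG, was in 5 of 7 members (0.0427% of all promoters, 15 in number, 10 of them beta genes). Counted from the first base of that form, PCDHB14 differed from it by G10A and PCDHB3 by C11T and A12T. CGCT alone was in 7 of 7 members but also in 70.0% of all promoters. These words were picked from the members' own promoters, so their presence there is a description and not a test. In members the word began between 16 bases (PCDHB5) and 76 bases (PCDHB9) before the gene's start.

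The 250 bases before the start are shown whole for PCDHB14, the member with the largest ethanol difference, and PCDHB5, the member with the smallest, with the 9-letter word in capitals.
PCDHB14, chr5:141223093-141223342, plus strand: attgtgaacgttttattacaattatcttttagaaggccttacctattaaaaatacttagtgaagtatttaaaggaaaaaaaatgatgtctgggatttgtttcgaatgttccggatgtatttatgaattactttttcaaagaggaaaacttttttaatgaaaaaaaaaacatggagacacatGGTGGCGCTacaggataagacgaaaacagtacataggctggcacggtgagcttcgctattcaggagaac
PCDHB5, chr5:141134956-141135205, plus strand: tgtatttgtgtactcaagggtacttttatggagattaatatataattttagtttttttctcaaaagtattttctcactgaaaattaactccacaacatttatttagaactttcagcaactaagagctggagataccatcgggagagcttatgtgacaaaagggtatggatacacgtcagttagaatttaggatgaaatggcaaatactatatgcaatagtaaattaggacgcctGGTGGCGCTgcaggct
Both carry the word, which was picked because all member promoters matched share it. Its presence could therefore not have separated these members, and its part in the ethanol differences was not tested.

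Over the 4 arrays of a day, the day 7 array with ethanol alone had the lowest mean correlation with the other arrays of its day (r = 0.990 over all clusters, against 0.994 to 0.995 for the other 3). At day 21 the 4 values were all 0.996. Array medians lay between 7.67 and 7.76. All 12 markers of pluripotent and embryonal carcinoma cells with a cluster of their own were above the threshold, with a mean level of 11.65 on the undifferentiated array. POU5F1 and NANOG had no cluster of their own and were not analysed here. All 4 endothelium and blood markers measured were below the threshold on every array.

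All values in this and the following paragraphs are levels on the RMA log2 scale unless called differences, and levels of different genes are not ranked because probes differ. In undifferentiated cells the members had levels of 10.48 (PCDHB5), 9.16 (PCDHB2), 8.22 (PCDHB3), 7.93 (PCDHB16), 7.93 (PCDHB11), 7.58 (PCDHB12), 7.36 (PCDHB9) and 6.61 (PCDHB14). The median member level was 7.93 in undifferentiated cells. At day 7 it was 7.76 with ethanol, 7.60 with ethanol and FA, 8.24 with FA and 8.19 untreated. At day 21 it was 7.51 with ethanol, 7.60 with ethanol and FA, 8.24 with FA and 8.27 untreated. All 4 medians with ethanol were below that of undifferentiated cells, and all 4 without it were above. Because the genes were chosen with their ethanol values known, nothing is read from this.

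**Figure D1:**
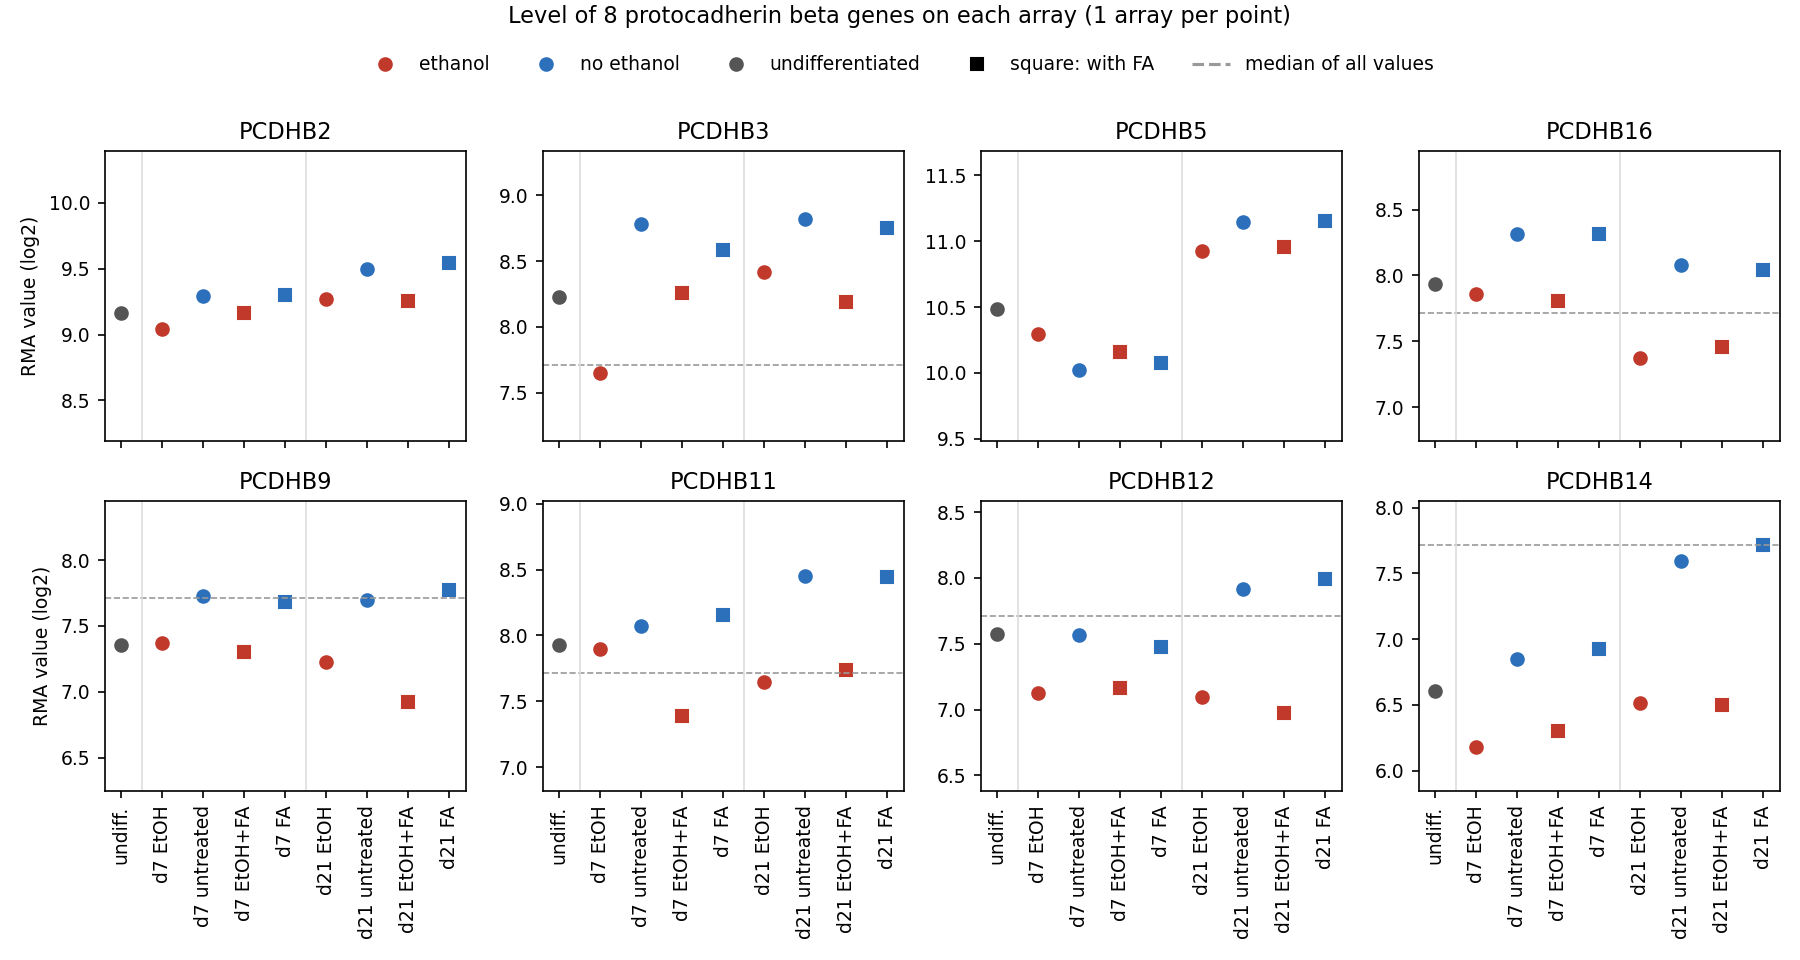
Each panel plots the RMA log2 value of a gene (vertical axis, each panel spanning the same range in log2 units) on each of the 9 arrays (horizontal axis). Red points are ethanol arrays, blue points embryoid bodies without ethanol, grey the undifferentiated array, squares carry FA, and the dashed line is the median of all values. In every panel but that of PCDHB5 all 4 red points lie below all 4 blue points.

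With ethanol, 7 of the 8 genes were lower in all 4 matched pairs of arrays and had no overlap between the groups, and PCDHB5 was the exception. The median of the members' mean differences was -0.59 on the log2 scale (SD over the 4 pairs of the median member 0.14), against 0.02 over all 12254 genes tested. Of all genes tested, 11.0% were lower in all 4 pairs and 1.49% had all 4 ethanol arrays below all 4 arrays without. A mean difference of -0.5 or lower was seen in 6 of the 8, against 0.294% of all genes tested. Because the ethanol values were known when the genes were chosen, and the filter favoured genes bright without ethanol, nothing is read from these counts.

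PCDHB14, which codes for a homophilic adhesion protein like all members, showed the largest difference. Its level was 6.18 with ethanol against 6.85 untreated at day 7, and 6.30 with ethanol and FA against 6.92 with FA. At day 21 it was 6.52 with ethanol against 7.59 untreated, and 6.50 with ethanol and FA against 7.71 with FA. The highest ethanol value, 6.52, was below the lowest value without ethanol, 6.85, and all 4 ethanol values were below that of undifferentiated cells. The ethanol arrays averaged 6.38 ± 0.16 and those without 7.27 ± 0.45 (SD over 4 arrays that differ in day and FA). The mean difference was -0.89 ± 0.10 (SE of the fit), or 1.86-fold lower.

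PCDHB16 was the member whose pairs were close together around a large difference. It had 7.86 with ethanol against 8.31 untreated and 7.80 with ethanol and FA against 8.32 with FA at day 7. The day 21 levels were 7.37 with ethanol against 8.08 untreated and 7.46 with ethanol and FA against 8.04 with FA. The 4 pairs differed by -0.45 to -0.71, and all 4 ethanol arrays were below all 4 without. The mean difference was -0.57 ± 0.06, or 1.48-fold lower.

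PCDHB12 was lower with ethanol by more at day 21 than at day 7. Its level was 7.12 with ethanol against 7.56 untreated and 7.17 with ethanol and FA against 7.48 with FA at day 7. At day 21 the values were 7.10 with ethanol against 7.92 untreated and 6.98 with ethanol and FA against 7.99 with FA. The 4 ethanol values had an SD of 0.08, and the day 21 values without ethanol stood above those of day 7. The mean difference was -0.65 ± 0.11, or 1.57-fold lower.

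PCDHB11 had 7.89 with ethanol against 8.07 untreated and 7.39 with ethanol and FA against 8.16 with FA at day 7. Later, at day 21, it had 7.64 with ethanol against 8.45 untreated and 7.74 with ethanol and FA against 8.45 with FA. The smallest of the 4 differences, -0.18, involved the day 7 array with ethanol alone, which had the lowest correlation with its day. The mean difference was -0.61 ± 0.11, and -0.76 without that array.

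PCDHB3 had 7.65 with ethanol against 8.78 untreated and 8.26 with ethanol and FA against 8.58 with FA at day 7. Day 21 levels of PCDHB3 were 8.41 with ethanol against 8.82 untreated and 8.19 with ethanol and FA against 8.75 with FA. Here the same day 7 ethanol array gave the largest difference, -1.13, while the other 3 lay between -0.33 and -0.56. The mean difference was -0.61 ± 0.14, and -0.43 without that array.

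PCDHB9 had 7.37 with ethanol against 7.73 untreated and 7.30 with ethanol and FA against 7.69 with FA at day 7. Its day 21 levels were 7.22 with ethanol against 7.70 untreated and 6.92 with ethanol and FA against 7.77 with FA. Its 4 values without ethanol were nearly level, with an SD of 0.04, and all above the ethanol arrays. The mean difference was -0.52 ± 0.08, or 1.43-fold lower.

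PCDHB2 and PCDHB5 had the smallest differences. PCDHB2 had 9.04 with ethanol against 9.29 untreated and 9.17 with ethanol and FA against 9.30 with FA at day 7. At day 21 it had 9.27 with ethanol against 9.50 untreated and 9.26 with ethanol and FA against 9.55 with FA. Its groups did not overlap, by a narrow margin of 9.27 against 9.29, and the mean difference was -0.23 ± 0.05. PCDHB5 had 10.30 with ethanol against 10.02 untreated and 10.16 with ethanol and FA against 10.07 with FA at day 7, so it was higher with ethanol in both pairs. At day 21 it had 10.93 with ethanol against 11.14 untreated and 10.95 with ethanol and FA against 11.15 with FA, so it was lower in both pairs. Its mean difference was -0.01 ± 0.09.

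**Figure D2:**
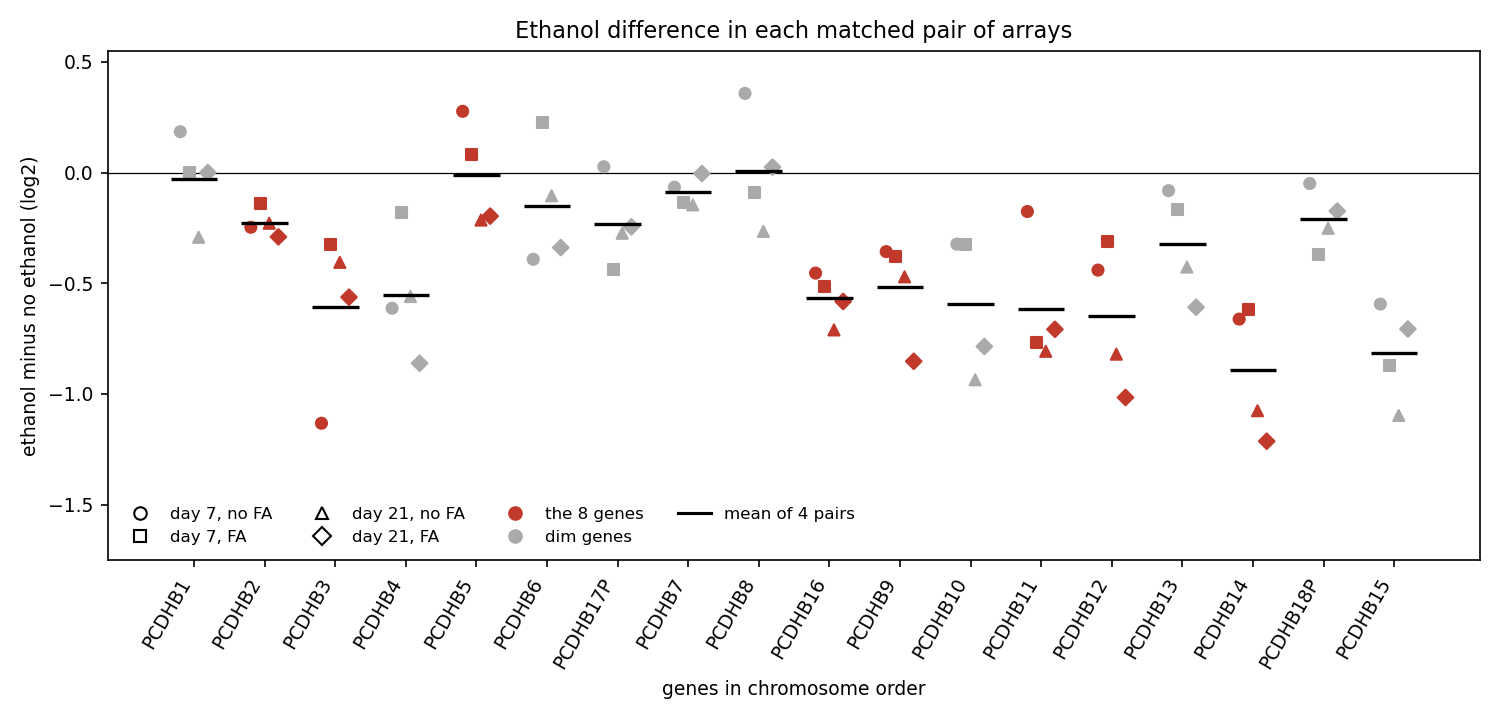
The log2 difference, ethanol minus no ethanol, is plotted for each of the 4 matched pairs (marker shape) and for all 18 protocadherin beta genes in chromosome order. Red marks the 8 genes, grey the 10 dim genes (below the threshold on every array), and black lines the mean of the pairs. Means of -0.5 or lower are seen in both colours and are uneven along the cluster. PCDHB3 and PCDHB4 have them, and so do most genes from PCDHB16 to PCDHB15. PCDHB1, PCDHB2 and the genes from PCDHB5 to PCDHB8 do not.

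The 10 other beta genes and pseudogenes were below the threshold on every array and were not tested, and RMA compresses differences of dim genes. Among the members, PCDHB14 was also below the threshold on every array but that of day 21 with FA. Of the 10 other genes, 6 were lower with ethanol in all 4 pairs, 4 had no overlap between the groups, and their median difference was -0.22. The shares of all genes tested do not cover genes below the threshold. Probe signal may also be shared with the members, so nothing is read from these counts. PCDHB15 had a mean difference of -0.82 ± 0.08. Its 4 ethanol values averaged 6.36 ± 0.16 and its 4 values without ethanol 7.18 ± 0.08 (SD). PCDHB10 (-0.59 ± 0.11), PCDHB4 (-0.55 ± 0.10) and PCDHB13 (-0.32 ± 0.09) had no overlap either. PCDHB17P (-0.23), PCDHB18P (-0.21), PCDHB6 (-0.15) and PCDHB7 (-0.09) had smaller differences, and PCDHB1 (-0.03) and PCDHB8 (0.01) were at or near 0. Across the 18 genes the mean level and the ethanol difference had a Spearman's rho of -0.37 and a Pearson's r of -0.13. The 18 share arrays and possibly probe signal, so this is a description.

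Within the members, the ethanol difference was more negative at day 21 than at day 7 in 7 of 8, with PCDHB3 the exception. In PCDHB5 it changed sign, from 0.18 at day 7 to -0.21 at day 21. No share of all genes stands beside that count, and the interaction did not pass the test in any member. The PCDHB3 value was -0.14 when the day 7 array with ethanol alone was left out, so that it then had the sign of the others. The members' median difference was -0.40 in the day 7 pair without FA and -0.35 in that with it. In the day 21 pairs it was -0.59 without FA and -0.65 with it. PCDHB12 had the largest change of its difference between the days, -0.54 ± 0.11, with a mean of -0.92 at day 21 against -0.38 at day 7. PCDHB14 followed at -0.50 ± 0.10 (-1.14 at day 21, -0.64 at day 7), then PCDHB5 at -0.39 ± 0.10. In limma with Benjamini-Hochberg adjustment over all genes tested, the ethanol by day interaction had adjusted p from 0.243 (PCDHB14) to 0.992 (PCDHB2) in the 8 members. Over all genes 1 passed (0.00816%), SHISA3, named here because it was the only one, whereas 917 genes, 3 members among them, had an unadjusted p under 0.05. The call turned on single arrays, named here. PCDHB12 and PCDHB14 passed the filter only through day 21 arrays without ethanol, which favours a negative interaction. Leaving out the day 7 ethanol array that lacked FA, 329 genes passed, including PCDHB12 (adjusted p = 0.0294) and PCDHB14 (adjusted p = 0.0296). Leaving out the day 7 array that had ethanol with FA, 1112 genes passed, including PCDHB3 in the opposite direction (0.63, adjusted p = 0.00986), PCDHB11 (-0.57, adjusted p = 0.0114), PCDHB5 (-0.47, adjusted p = 0.0178), PCDHB14 (-0.47, adjusted p = 0.0227) and PCDHB12 (-0.50, adjusted p = 0.0259).

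The mean levels of most marker lists of cell types lay higher with ethanol in most of the matched pairs, but single markers differed in direction. The mean level of the 12 pluripotency markers at day 21 was 10.34 with ethanol against 10.08 untreated, and 10.22 with ethanol and FA against 9.99 with FA. At day 7 it was 11.40 with ethanol against 11.44 untreated, and 11.48 with ethanol and FA against 11.45 with FA. Of the 12, 5 were higher in all 4 pairs and 1 was lower (18.5% and 11.0% of all genes tested). The mean level of the 5 endoderm markers was higher with ethanol in all 4 pairs, at 7.56 with ethanol against 7.36 untreated and 7.41 with ethanol and FA against 7.37 with FA at day 7. At day 21 it was 7.52 with ethanol against 7.39 untreated and 7.60 with ethanol and FA against 7.49 with FA, and all 3 endoderm markers tested, SOX17, GATA4 and GATA6, were higher in all 4 pairs. The 4 trophoblast markers were also higher on average in all 4 pairs, with 7.66 and 7.63 with ethanol against 7.63 and 7.61 without at day 7, and 7.43 and 7.43 with ethanol against 7.31 and 7.28 without at day 21, and 1 of 2 tested was higher in all 4. The 6 neuron markers with a cluster of their own averaged 7.29 with ethanol against 7.18 untreated at day 7. With FA the day 7 values were 7.25 with ethanol against 7.12 without. At day 21 they were 7.78 with ethanol against 7.71 untreated, and 7.70 with ethanol and FA against 7.77 with FA. The 4 neuron markers tested had mean ethanol differences of 0.55 (STMN2), 0.05 (DCX), -0.06 (SNAP25) and -0.26 (MAP2). The mean level of the 6 mesenchyme markers at day 7 was 6.57 with ethanol against 6.39 untreated, and 6.41 with ethanol and FA against 6.39 with FA. At day 21 it was 6.96 with ethanol against 6.85 untreated, and 6.82 with ethanol and FA against 6.83 with FA. The 3 mesenchyme markers tested had mean ethanol differences of 0.40 (POSTN), 0.05 (COL1A1) and 0.01 (COL3A1). For the 5 neural progenitor markers the day 7 values were 7.83 with ethanol against 7.68 untreated, and 7.68 with ethanol and FA against 7.68 with FA. Their day 21 values were 8.49 with ethanol against 8.40 untreated, and 8.41 with ethanol and FA against 8.52 with FA. The 4 endothelium and blood markers, all below the threshold, averaged 6.29 with ethanol against 6.20 untreated at day 7. With FA the day 7 values were 6.16 with ethanol against 6.24 without. At day 21 they were 6.28 with ethanol against 6.18 untreated, and 6.32 with ethanol and FA against 6.17 with FA. Their part in the ethanol differences of the protocadherin genes was not tested.

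Between day 7 and day 21, PCDHB5, PCDHB14 and PCDHB2 rose and PCDHB16 fell. PCDHB5 rose most, by 0.91 ± 0.09 (limma adjusted p = 7.99e-05), or 1.88-fold. Its 4 day 21 values, 10.93 to 11.15, lay above its 4 day 7 values, 10.02 to 10.30, with the undifferentiated array between them at 10.48. PCDHB14 rose by 0.52 ± 0.10 (limma adjusted p = 0.00384), with differences of 0.33 with ethanol, 0.19 with ethanol and FA, 0.79 with FA and 0.75 untreated. PCDHB14 and PCDHB12 passed the filter only through day 21 arrays, which favours genes that are higher then. PCDHB2 rose by 0.19 ± 0.05 (limma adjusted p = 0.0131), an effect of 1.14-fold, and lost the call without the day 7 FA array (adjusted p = 0.0669). PCDHB16 fell by 0.34 ± 0.06 on the log2 scale (limma adjusted p = 0.00167), with the 4 pairs between -0.23 and -0.49.

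The other 4 members did not pass the test between the days. PCDHB3 differed by 0.22 ± 0.14, PCDHB11 by 0.19 ± 0.11, PCDHB12 by 0.16 ± 0.11 and PCDHB9 by -0.12 ± 0.08, with limma adjusted p from 0.178 to 0.259. PCDHB11 passed without the day 7 array with ethanol alone (0.33, adjusted p = 0.000788), and PCDHB12 in the fit with the product of ethanol and day (adjusted p = 0.0476). Of all genes tested, 26.3% rose and 22.6% fell between the days (48.9% in all), so 4 of 8 is close to the share of all genes. The median member difference between the days was 0.10 with ethanol, 0.01 with ethanol and FA, 0.27 with FA and 0.28 untreated. These medians compare single pairs of arrays and have no test.

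**Figure D3:**
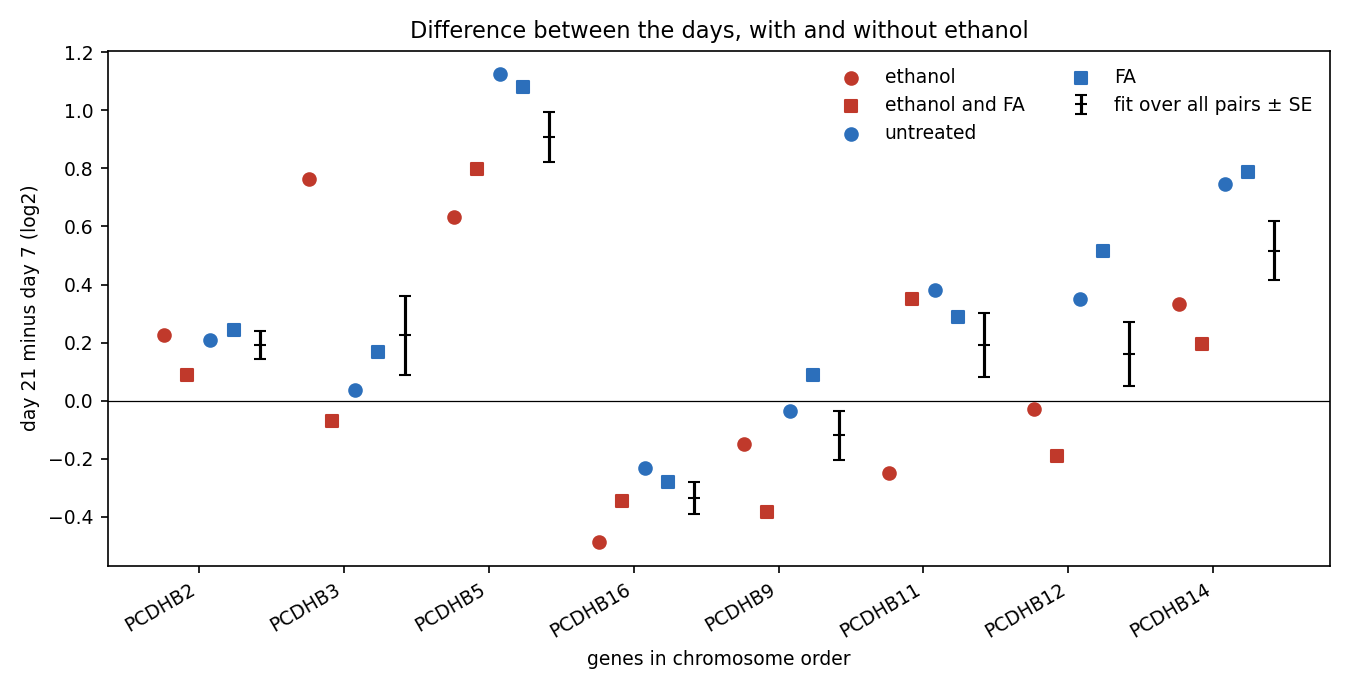
The log2 difference, day 21 minus day 7, is plotted for each of the 8 genes in chromosome order. Red points compare ethanol arrays, blue points arrays without ethanol, squares arrays with FA, and the black bar is the additive fit ± SE. PCDHB5 lies between 0.63 and 1.12 in the 4 comparisons and PCDHB16 is below 0 in all 4, while PCDHB12 and PCDHB9 lie below 0 for both red points.

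Other cell markers changed between the same days. The mean level of the 12 pluripotency markers was 9.99 to 10.34 on the day 21 arrays and 11.40 to 11.48 on the day 7 arrays, and 11 of 12 fell. The 6 neuron markers averaged 7.70 to 7.78 at day 21 and 7.12 to 7.29 at day 7, and of the 4 tested 3 rose and 1 fell. For the 5 neural progenitor markers the mean level was 8.40 to 8.52 at day 21 and 7.68 to 7.83 at day 7, and 1 of the 5 rose and 1 fell. The gene that rose was PAX6, a regulator of neural and eye development, by 4.32 ± 0.11 (limma adjusted p = 1.08e-07). FABP7 was the gene that fell (-0.70 ± 0.11, limma adjusted p = 0.00112), and SOX1 (0.15) and NES (-0.16) did not pass. The higher mean level of this list at day 21 was thus carried by PAX6. Of the mesenchyme markers 2 of 3 tested rose, of the endoderm markers 1 of 3 rose, and of the trophoblast markers 1 rose and 1 fell of 2 tested. Their part in the differences of the protocadherin genes was not tested.

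In the additive fit, PCDHB16 passed as higher in untreated embryoid bodies than in undifferentiated cells at day 7, and PCDHB14, PCDHB5 and PCDHB2 at day 21. Values are the fitted untreated level of the additive model minus the undifferentiated array. The fitted level draws on the ethanol difference, which was known when the genes were chosen. This favours a rise in genes that were lower with ethanol. PCDHB9, PCDHB12 and PCDHB14 passed the filter only through embryoid body arrays without ethanol, which favours a rise as well. The additive fit also applies the same ethanol difference to both days. At day 7 PCDHB16 rose by 0.42 ± 0.10 (limma adjusted p = 0.0208), with a raw level of 8.31 against 7.93. That call was lost without the untreated day 7 array (adjusted p = 0.0709) and without the day 7 FA array (adjusted p = 0.0526). The other 7 did not pass, with PCDHB9 at 0.47 ± 0.15 (adjusted p = 0.0561 in limma) and PCDHB5 at -0.34 ± 0.15 (adjusted p = 0.149 in limma). PCDHB9 passed when the day 7 array with ethanol plus FA was left out (adjusted p = 0.0457) and without the day 21 FA array (adjusted p = 0.0389). PCDHB3 (0.56, adjusted p = 0.00420) and PCDHB5 (-0.42, adjusted p = 0.0277) passed without the day 7 array with ethanol alone. Of all genes tested 6.68% rose and 13.9% fell, against 1 and 0 of 8 members. The members' median was 0.33, against -0.05 over all genes tested. With the raw untreated day 7 array in place of the fitted level, the members' median was 0.19. For the reasons given above, nothing is read from the PCDHB16 call, the counts or the medians.

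At day 21 PCDHB14 rose by 0.88 ± 0.18 over undifferentiated cells (limma adjusted p = 0.00582), PCDHB5 by 0.57 ± 0.15 (adjusted p = 0.0175) and PCDHB2 by 0.32 ± 0.09 (adjusted p = 0.0195). PCDHB14 passed the filter only through the day 21 array with FA, so it was tested because it was high there. PCDHB9 and PCDHB12 also passed the filter only through embryoid body arrays without ethanol. Raw levels were 7.59 against 6.61 for PCDHB14, 11.14 against 10.48 for PCDHB5 and 9.50 against 9.16 for PCDHB2. PCDHB3 (0.61 ± 0.23), PCDHB11 (0.49 ± 0.19), PCDHB9 (0.35 ± 0.15), PCDHB12 (0.25 ± 0.19) and PCDHB16 (0.09 ± 0.10) did not pass, with limma adjusted p from 0.0750 to 0.520. Of all genes tested 16.6% rose and 21.2% fell, against 3 and 0 of 8 members. The median was 0.42 over the members (0.43 with the raw untreated day 21 array) and -0.06 over all genes tested. The fitted level again draws on the ethanol difference, so nothing is read from the PCDHB14 and PCDHB2 calls, the counts or the medians. The mean ethanol difference of PCDHB5 was -0.01. PCDHB5 lost its call without the untreated day 21 array (adjusted p = 0.0824). PCDHB2 lost its call without that array (adjusted p = 0.0703) and without the day 21 array with ethanol alone (adjusted p = 0.0501). PCDHB3 and PCDHB11 passed without the day 7 array with ethanol alone (adjusted p = 0.00112 and 0.00127), PCDHB3 when the day 7 array with ethanol plus FA was left out (adjusted p = 0.0234), PCDHB11 without the day 21 array with ethanol alone (adjusted p = 0.0480), and PCDHB9 when the day 21 array with ethanol plus FA was left out (adjusted p = 0.0397). All of these rest on 1 undifferentiated array, and they share it and the embryoid body arrays with the comparison of the days.

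On the ethanol arrays most members were not above their level in undifferentiated cells. The untreated day 21 array was above the undifferentiated array for 8 of 8 members, with a median difference of 0.43. The day 21 array with ethanol was above it for 3 of 8 (median -0.11) and the one with ethanol and FA for 2 of 8 (median -0.15). At day 7, 1 of 8 was higher with ethanol (median -0.16) and 6 of 8 were higher untreated (median 0.19). These are differences between single arrays and have no test, and no share of all genes stands beside the counts. The genes were chosen with their ethanol values known. PCDHB9, PCDHB12 and PCDHB14 also passed the filter only through embryoid body arrays without ethanol, so nothing is read from these counts.

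**Figure D4:**
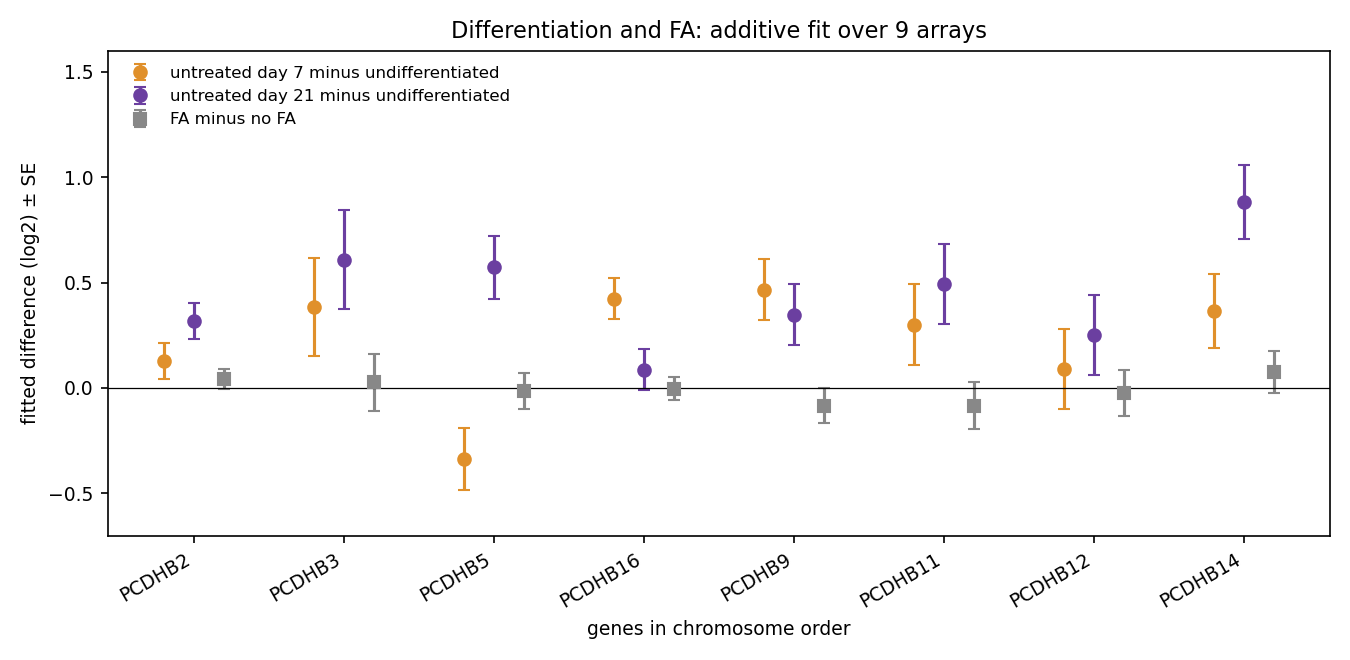
Points are fitted log2 differences with SE bars for the 8 genes in chromosome order, from the additive fit over 9 arrays. Orange is untreated day 7 minus undifferentiated, purple untreated day 21 minus undifferentiated, and grey FA minus no FA. Purple points run from 0.09 (PCDHB16) to 0.88 (PCDHB14), and grey points lie between -0.08 and 0.08.

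FA gave no call in any member. The FA difference ranged from -0.08 ± 0.08 (PCDHB9) to 0.08 ± 0.10 (PCDHB14), with limma adjusted p = 1.00 for all 8 and a median of -0.0085, against -0.0034 over all genes tested. No gene passed in limma (0%), with or without a trend on the mean level, and 121 of 12254 genes but 0 members had an unadjusted p under 0.05. In single pairs the largest FA differences were on the day 7 ethanol arrays, 0.61 for PCDHB3 and -0.51 for PCDHB11, and these involve the day 7 ethanol array with the lowest correlation. Without ethanol, the FA differences lay between -0.20 and 0.09 at day 7 and between -0.07 and 0.12 at day 21. The ethanol by FA interaction passed in 0 genes (100 at an unadjusted p under 0.05, no members), with adjusted p = 0.994 for every member in limma. The FA by day interaction also passed in 0 genes (1496 at an unadjusted p under 0.05, no members), with adjusted p from 0.501 to 0.999 over the members.

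Of alpha and gamma genes, 12 alpha and 1 gamma had a cluster of their own. Of these 13, 12 were tested, and their ethanol differences had a median of 0.07 and ranged from -0.23 to 0.17. Alpha transcripts share their last exons, so their clusters can share signal. With ethanol 5 alpha genes were higher in all 4 pairs (18.5% of all genes tested), PCDHA11 (0.17), PCDHA7 (0.15), PCDHA13 (0.14), PCDHA12 (0.12) and PCDHA5 (0.08), where PCDHA13 and PCDHA5 were named after their values were seen. The gamma gene, PCDHGB4 (-0.23), was lower in all 4. The difference between beta and alpha genes was not tested. Between the days, 10 of the 12 rose and 0 fell (26.3% and 22.6% of all genes tested), with PCDHA10 at 0.52 ± 0.07, PCDHA12 at 0.48 ± 0.06 and PCDHA6 at 0.38 ± 0.07. Over undifferentiated cells 6 of 12 rose at day 21 and 0 at day 7.

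**Figure D5:**
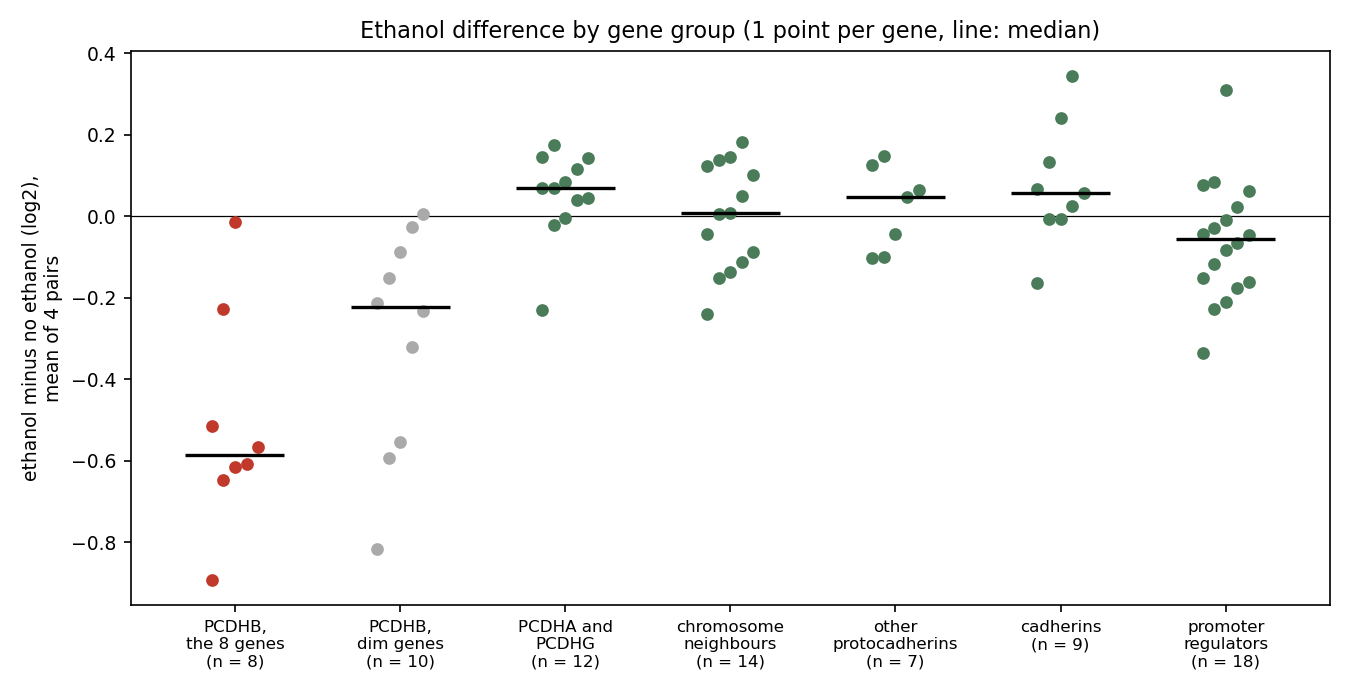
Each point is a gene's mean log2 difference, ethanol minus no ethanol, over 4 pairs, and lines are medians. The groups are the 8 beta genes (median -0.59), the 10 dim beta genes (-0.22), alpha and gamma genes (0.07), genes flanking the clusters (0.01), non-clustered protocadherins (0.05), cadherins (0.06) and regulators of the clustered promoters (-0.06).

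Of 14 genes tested that flank the clusters on chromosome 5, the median ethanol difference was 0.01 and the range -0.24 to 0.18. TAF7, a subunit of the general transcription factor TFIID whose gene lies between the beta and gamma clusters, was lower in all 4 pairs (-0.24 ± 0.05), as was TMCO6 (-0.15), while IK (0.18) was higher in 3 of 4 and WDR55 (0.14) in all 4. In all, 3 neighbours were lower and 4 higher in all 4 pairs (11.0% and 18.5% of all genes tested). The others, named after their values were seen, were HDAC3 (-0.09) as lower and HARS1 (0.14), NDUFA2 (0.12) and DIAPH1 (0.10) as higher. Between the days 2 rose and 5 fell, among them PCDH1 (-0.48), ARAP3 (-0.47), WDR55 (-0.43) and FCHSD1 (-0.38). At day 7, 1 was above and 4 were below undifferentiated cells past the test, and at day 21 the counts were 0 and 7.

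Genes known to act on clustered protocadherin promoters were all 18 measured above the threshold. With ethanol their median was -0.06, and 7 were lower and 2 higher in all 4 pairs (11.0% and 18.5% of all genes tested), among them ZNF143 (-0.34 ± 0.14), a partner of CTCF at promoters, and the methylcytosine oxidase gene TET1 (-0.23 ± 0.09) as lower and the DNA methyltransferase gene DNMT3B (0.31 ± 0.10) as higher. The others, named after their values were seen, were as lower the cohesin subunit genes STAG2 (-0.21), RAD21 (-0.18) and SMC3 (-0.16). SETDB1 (-0.15) and DNMT3A (-0.06) were also lower, and DNMT1 (0.09) was higher. Between the days 3 rose and 2 fell. DNMT3B fell by 2.14 ± 0.10 on the log2 scale and TET1 fell by 0.79 ± 0.09, while the cohesin subunit gene STAG1 rose by 0.90 ± 0.08 and PDS5B, which codes for a cohesin regulator, by 0.40 ± 0.09 (limma adjusted p up to 0.00665 for these 4). Over undifferentiated cells 1 rose and 2 fell at day 7, and 4 rose and 4 fell at day 21.

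Of 7 non-clustered protocadherins tested, 4 rose and 1 fell between the days (26.3% and 22.6% of all genes tested), with PCDH7 at 1.20 ± 0.06, PCDH18 at 1.02 ± 0.12, PCDH19 at 0.94 ± 0.06 and PCDH17 at 0.73 ± 0.07. Their median ethanol difference was 0.05, and PCDH19 (0.15) was higher in all 4 pairs. Over undifferentiated cells 1 of them rose and 0 fell at day 7 (6.68% and 13.9% of all genes tested), and 4 rose and 1 fell at day 21 (16.6% and 21.2%). These shares, and those between the days, are the background for every list given here. Of 9 cadherins tested, 5 rose and 2 fell between the days, with CDH20 at 1.79 ± 0.10 and CDH6 at 0.75 ± 0.06 as higher and the epithelial cadherin gene CDH1 (-1.49 ± 0.23) and CDH3 (-0.75 ± 0.11) as lower. Their median ethanol difference was 0.06, with CDH3 at 0.34 in 3 of 4 pairs and CDH11 at -0.16. Over undifferentiated cells 0 cadherins rose and 1 fell at day 7, and 5 rose and 1 fell at day 21.

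Of 10 tested genes for signalling partners of clustered protocadherins, such as the kinase gene PTK2 and the actin-regulating WAVE complex, 3 rose and 2 fell between the days. CYFIP2 (1.32 ± 0.05), NLGN1 (0.93 ± 0.12) and NCKAP1 (0.34 ± 0.05) rose, and AXIN1 (-0.20 ± 0.05) was among those that fell. Their median ethanol difference was 0.04, with PTK2 at -0.12 in 4 of 4 pairs. Over undifferentiated cells 0 rose and 1 fell at day 7, and 3 rose and 0 fell at day 21. Of 10 neuron genes tested, 6 rose and 2 fell between the days, with the adhesion gene NCAM1 at 2.31 ± 0.05, DCX, which codes for a microtubule protein of migrating neurons, at 1.66 ± 0.08 and the synaptic gene SNAP25 at 1.46 ± 0.10. Their median ethanol difference was 0.03, and the neurofilament gene INA (0.60 ± 0.10), STMN2 (0.55 ± 0.12) and NCAM1 (0.47 ± 0.05) were higher in all 4 pairs. In all, 4 of the 10 were higher and 1 lower in all 4 (18.5% and 11.0% of all genes tested). The other gene that was higher was NEFL (0.29 ± 0.10) and the lower one SYT1 (-0.26 ± 0.10), a synaptic vesicle gene whose groups did not overlap, both named after their values were seen. Over undifferentiated cells 0 rose and 2 fell at day 7, and 6 rose and 3 fell at day 21.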

How the data were processed

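The authors deposited log2 expression values per transcript cluster, which the submitters' processing notes credit to RMA and Affymetrix Expression Console 1.3.1. RMA corrects background, quantile-normalizes arrays and summarises the probes of a cluster. The log2 base was inferred from the values (2.49 to 14.3). No source used here names the annotation's genome build. Of 33297 clusters, 19460 had 1 gene symbol, 1754 several and 12083 were unnamed here. The brightest cluster per symbol gave 18417 genes, of which 12254 exceeded 7.71 on some array and were tested.

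limma 3.58.1 (lmFit, eBayes; R 4.3.3) fitted 1 additive model per gene over 9 arrays, with the factors ethanol, day and FA, plus 1 coefficient for undifferentiated cells (4 residual degrees of freedom, prior 3.94). The residual stands in for replicate error and holds any true interaction. Each interaction was tested by adding its product (3 residual degrees of freedom). P-values were adjusted by Benjamini-Hochberg over the genes tested, threshold 0.05. The fit was tested on simulated data. The number of arrays limits precision.

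Members, lists and tests were chosen with earlier results of these data known. Apart from beta genes, the genes named were up to 4 per list by day difference, up to 3 by ethanol difference, and 8 most and 3 least like the members in pattern. Alternatives were no filter or a filter on the mean, the mean of a gene's clusters, median centring, a variance trend, the ethanol by day product, leaving out each array and, added after seeing the data, the 4 ethanol pairs as a block.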

Additional observations from a re-analysis of the deposited data

How the results depend on the processing

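By replicate number, no paired analysis was possible because each condition had 1 array. With the 4 pairs alike in day and FA as a block, an alternative chosen after seeing the data, the members' mean ethanol differences were the same, with a median of -0.59, and their SEs were 0.05 to 0.12. The ethanol median of the members kept its sign, between -0.60 and -0.53, under the 16 alternatives run. The PCDHB5 ethanol difference, -0.01, was between 0.03 and 0.05 when any of the 4 day 21 arrays was left out. The filter on the mean tested 5 members and left out PCDHB9, PCDHB12 and PCDHB14. Of 779 tested values of single members under alternatives, 695 kept direction and side of the threshold, 21 gained a call, 6 lost it and 57 changed sign. None of those 57, in 23 results, was a call before or after. Those that changed sign with 1 array left out are given by their ranges. FA differences ranged from -0.15 to 0.12 for PCDHB3, -0.079 to 0.066 for PCDHB5, -0.16 to 0.0063 for PCDHB9, -0.16 to 0.057 for PCDHB11, -0.11 to 0.070 for PCDHB12 and -0.045 to 0.030 for PCDHB16. Ethanol by FA interactions ranged from -0.044 to 0.092 for PCDHB2, -0.034 to 0.68 for PCDHB3, -0.27 to 0.10 for PCDHB5, -0.54 to 0.048 for PCDHB11, -0.27 to 0.20 for PCDHB12, -0.26 to 0.17 for PCDHB14 and -0.067 to 0.13 for PCDHB16. FA by day interactions ranged from -0.11 to 0.0069 for PCDHB2, -0.70 to 0.00055 for PCDHB3, -0.13 to 0.25 for PCDHB5, -0.28 to 0.17 for PCDHB9, -0.040 to 0.55 for PCDHB11, -0.25 to 0.25 for PCDHB12, -0.26 to 0.17 for PCDHB14 and -0.051 to 0.14 for PCDHB16, and that of PCDHB12 was -0.039 with centred arrays. The ethanol by day interaction ranged from -0.14 to 0.63 for PCDHB3. At day 7 over undifferentiated cells the range was -0.0018 to 0.19 for PCDHB12, which was -0.045 with the product of ethanol and day. With 1 array left out, the genes called for day 7 over undifferentiated cells ranged from 540 (without the untreated day 7 array) to 3833 (leaving out the day 7 array with ethanol alone), against 2520 (1293 without the day 7 FA array), and the members called from 0 to 3. Members called for day 21 over undifferentiated cells ranged from 1 to 5. For the ethanol by day interaction, genes called ranged from 0 to 1112 and members from 0 to 5, and with no filter 0 genes passed. With the product of ethanol and day in the model, 2 members passed at day 7 and 5 at day 21 over undifferentiated cells. The additions were PCDHB5 (-0.43, adjusted p = 0.0247 in limma) at day 7, and PCDHB9 (0.42, adjusted p = 0.0399) and PCDHB12 (0.39, adjusted p = 0.0229) at day 21. The cause was not tested. PCDHB9 and PCDHB12 passed the filter only through embryoid body arrays without ethanol, which favours a rise over undifferentiated cells, so nothing is read from their added calls. Without the undifferentiated array, its own comparisons gave no value. Leaving out arrays also leaves fewer degrees of freedom.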

Other observations

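The members' levels over the 9 arrays had pairwise Pearson correlations from -0.45 to 0.96, with a median of 0.67 over 28 pairs. PCDHB14 had the highest median correlation with the other members (0.81) and PCDHB5 the lowest (0.29), followed by PCDHB16 (0.48). The points share arrays and possibly probe signal. The members were also chosen with their ethanol differences on these arrays known, which favours correlation among them. These values are therefore descriptions.

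Outside the members, the tested genes whose pattern over the 9 arrays was most like the members' mean were TOX3 (r = 0.93), AXL (0.93), MERTK (0.93), RIPOR2 (0.92), KCTD7 (0.91), PRC1 (0.91), NLK (0.90) and GPALPP1 (0.88). AXL and MERTK code for receptor tyrosine kinases of the same family, PRC1 for a protein of the mitotic spindle midzone, and NLK for a kinase. Mean ethanol differences were -0.46 for TOX3, -0.49 for RIPOR2, -0.32 for MERTK and -0.16 for AXL. For KCTD7 it was -0.28, for GPALPP1 -0.20, for PRC1 -0.12 and for NLK -0.09. The least like were PSENEN (r = -0.95), a subunit of gamma-secretase, MAL2 (-0.94) and DRAXIN (-0.93), an axon guidance gene, with ethanol differences of 0.16, 0.59 and 0.45. These were picked as the extremes over 9 arrays among all genes tested outside the members, with no test. The members' mean pattern holds their ethanol difference, so the signs of these ethanol differences follow from the choice and nothing is read from them.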
